A study of Mus musculus with 8 samples.

Results

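Stromal cells of newborn bone that carried GFP under nestin regulatory elements were compared by whether they bore Pdgfrα, the α receptor for platelet-derived growth factor, on their surface. The comparison took 4 of the 8 RNA-seq libraries, 2 of GFP+ Pdgfrα+ cells and 2 of GFP+ Pdgfrα- cells, chosen by the sort named in their labels and by no measured value, and covered all 15880 genes of the table. All libraries came from *Nes-Gfp* heterozygous C57BL/6 mice at postnatal day 1, each from a pool of 3 pups, so that the spread between replicates is a spread between pools. Femora, tibiae, scapulae, humeri and radii were crushed and treated with collagenase, and 15000 to 80000 cells lacking the surface antigens of white blood cells (CD45), endothelium (CD31) and red cells (Ter119) were sorted for each population. The 4 GFP- libraries, 2 with and 2 without Pdgfrα, came from the same kind of preparation and entered the estimate of the spread and 1 comparison of the splits.

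Nestin is an intermediate filament protein of neural and muscle progenitors, and GFP under its regulatory elements is widely used to mark perivascular stromal cells of the marrow. Pdgfrα is a receptor tyrosine kinase of mesenchymal progenitors and fibroblasts, and cells of the skeletal lineage that bear it can form bone, cartilage, fat and supporting stroma. Glia of peripheral nerve, precursors of skeletal muscle and mural cells of blood vessels are other cells in which nestin regulatory elements are known to be active.

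GFP in this model reports the activity of the transgene and not nestin itself, and the transgene had no entry in the table. Library depth was 3564158 and 3329432 reads on genes in GFP+ Pdgfrα+ cells and 3644103 and 3427644 in GFP+ Pdgfrα- cells. Values are the authors' normalised read counts, a read count plus 0.5 divided by the effective library size and scaled to CPM, and pairs of values give replicate 1 before replicate 2. Unless GFP- cells are named, Pdgfrα+ and Pdgfrα- stand for the 2 GFP+ populations, and a fold change is the log2 ratio of Pdgfrα+ over Pdgfrα- cells with its standard error from limma. A gene was called when its adjusted p was at most 0.05, with 2 libraries in each population. Genes with 3 reads or fewer in both libraries of a population were taken as at the floor there, and a ratio against such a population is given over the summed reads with its 95% counting interval, or as a lower bound against 3 reads per library where it had no reads. A counting interval leaves out the spread between pools.

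The 2 populations differed at 3848 of 15880 genes (24.2%). Of these, 2080 genes (13.1% of all genes) were higher and 1768 (11.1%) lower in Pdgfrα+ cells, against a median fold change of −0.02 over all genes. A fold change above 1 was found for 1584 of the genes called higher, and one below −1 for 1101 of those called lower. The median size of the change among the called genes was 1.37, and the smallest was 0.34. All 3848 called genes (24.2%) had both libraries of one population above both of the other, as had 9727 of all genes. The counts rested in part on single libraries. Without Pdgfrα- replicate 1, 2158 genes were called (1271 higher and 887 lower), and without Pdgfrα- replicate 2, 2411 were called, with 968 of them lower. Without Pdgfrα+ replicate 2, the number called lower was 1123. An exact permutation test of 2 against 2 libraries cannot go below p 0.333, so that single genes rest on the spread pooled over all populations.

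The libraries of the 2 populations also differed in their most abundant transcript. The mitochondrial ribosomal RNA *mt-Rnr2*, chosen after its values were seen, stood at 93738 and 98365 in Pdgfrα+ cells and at 155742 and 137404 in Pdgfrα- cells. It was higher in both Pdgfrα- libraries, though its difference was not called (−0.61 ± 0.22, adjusted p 0.0707). Whether the share of reads it took bears on the other differences was not tested.

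The gene of the sorted receptor followed the label. *Pdgfra* (ENSMUSG00000029231, chromosome 5, 75548316 to 75594229, plus strand, build NCBIM37) had values of 733 and 754 in Pdgfrα+ cells and 18.1 and 10.4 in Pdgfrα- cells. It was high in both libraries sorted for the receptor and low in both sorted without it, and since the sort used its protein, its fold change of 5.66 ± 0.22 is a check of the sort and not a finding. *Nes* (ENSMUSG00000004891, chromosome 3, 87775000 to 87784373, plus strand) had values of 57.6 and 72.0 in Pdgfrα+ cells and 149 and 176 in Pdgfrα- cells, so that transcripts of the endogenous gene were present in all 4 libraries and lower with Pdgfrα (−1.32 ± 0.34, adjusted p 0.0144). With all libraries, leaving out the mean-variance trend of the fit ended this call (adjusted p 0.0684). The call of *Nes* ended without Pdgfrα+ replicate 1 (adjusted p 0.0984), Pdgfrα- replicate 1 (adjusted p 0.0773) or Pdgfrα- replicate 2 (adjusted p 0.126).

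Genes of matrix proteins were among the 10 largest increases in Pdgfrα+ cells, ranked by the fitted fold change. The fit adds a pseudocount of 1, so that genes at the floor in Pdgfrα- cells rank lower by it than by reads. By reads *Igfbp6* was 201-fold and *Gdf10* 147-fold higher, and neither is among the 10. *Mfap5* (ENSMUSG00000030116, chromosome 6, 122455863 to 122479308, plus strand), which encodes a glycoprotein of elastic microfibrils, had values of 294 and 349 in Pdgfrα+ cells and 1.58 and 2.19 in Pdgfrα- cells. Both Pdgfrα- libraries were near the floor and both Pdgfrα+ libraries were far above it, and the fold change was 6.81 ± 0.26 (adjusted p 2.64e-08). *Thbs4* (ENSMUSG00000021702, chromosome 13, 93521545 to 93564773, minus strand), a matrix protein of tendon and muscle attachment, had values of 473 and 509 against 7.41 and 6.30 and the smallest adjusted p of these 10 genes, 3.57e-10 (5.97 ± 0.14). *Cilp*, a matrix protein of cartilage and tendon, stood at 158 and 242 against 1.09 and 2.19 (6.25 ± 0.29). The libraries of the 2 populations were far apart for both of these genes. *Smoc2*, which encodes a calcium-binding matrix protein, had values of 116 and 151 against 1.09 and 1.16 (5.97), *Adam33*, a membrane metalloproteinase, 129.7 and 128 against 1.34 and 1.16 (5.85), and *Adamtsl3*, a secreted matrix protein, 129.7 and 142 against 0.607 and 2.96 (5.76, 5.11 without Pdgfrα- replicate 1 and 6.41 without Pdgfrα- replicate 2). *Penk*, the precursor of enkephalin peptides, stood at 156 and 185 against 1.82 and 1.67 (5.96 ± 0.23), and shares exons with a gene on the opposite strand, so that with an unstranded kit its reads cannot all be assigned. *Kctd12*, which encodes an auxiliary subunit of GABA-B receptors, had 278 and 292 in Pdgfrα+ cells, while the Pdgfrα- libraries differed widely from each other at 0.121 and 23.0 (5.78 ± 0.93, 3.57 without Pdgfrα- replicate 1 and 7.99 without Pdgfrα- replicate 2), and it too shares exons with an opposite gene. The unnamed gene *4833403I15Rik* stood at 70.3 and 72.9 in Pdgfrα+ cells and at the floor in Pdgfrα- cells, 143-fold higher (counting interval 55.5 to 527). *Pdgfra* completed the 10.

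Genes of skeletal muscle precursors were among the 10 largest decreases, ranked in the same way. *Iqsec3* (ENSMUSG00000040797, chromosome 6, 121322948 to 121423696, minus strand), an exchange factor for the small GTPase Arf known from synapses, was at the floor in Pdgfrα+ cells and at 76.8 and 69.1 in Pdgfrα- cells, 173-fold lower (counting interval 58.8 to 839.5) with Pdgfrα. *Msc* (ENSMUSG00000025930, chromosome 1, 14743427 to 14746047, minus strand), which encodes the basic helix-loop-helix repressor musculin, had values of 1.80 and 2.16 in Pdgfrα+ cells and 92.9 and 104 in Pdgfrα- cells (−5.06 ± 0.41, adjusted p 4.69e-06). *Vgll2*, a TEAD cofactor of skeletal muscle, stood at 1.80 and 0.719 against 56.7 and 69.6 (−4.86 ± 0.41). For each of these genes both Pdgfrα- libraries were high and both Pdgfrα+ libraries close to the floor. *Fgfr4*, the fibroblast growth factor receptor of myogenic cells, had values of 12.8 and 8.48 against 308 and 329 (−4.80), and *Myf5*, the myogenic regulatory factor of early muscle cells, 3.45 and 4.17 against 131 and 131 (−4.78). *Calcr*, the calcitonin receptor, which satellite cells carry, had 2.35 and 2.16 against 85.8 and 78.3 (−4.67). The populations did not overlap at any of these genes, as was so for all 3848 called genes. *Pax7* (ENSMUSG00000028736, chromosome 4, 139292977 to 139389445, minus strand), the paired-box factor that marks muscle precursors and satellite cells, had values of 10.4 and 14.5 in Pdgfrα+ cells and 296 and 336 in Pdgfrα- cells (−4.57 ± 0.31, adjusted p 1.26e-06). *Mylk4*, a kinase of the myosin light chain kinase family, had 1.24 and 3.88 against 69.1 and 81.7 (−4.52). The remaining 2 of the 10, *AF085738* (4.83 and 2.73 against 386 and 100.5, −5.41, with −4.44 without Pdgfrα- replicate 1 and −6.37 without Pdgfrα- replicate 2) and *Gm17639* (at the floor in Pdgfrα+ cells, at least 36.3-fold lower), share exons with *Gnas* and *Meg3* on the opposite strand. *Gnas* (0.03) and *Meg3* (−0.22), chosen after their values were seen, were not called, although *Gnas* was called lower with quantile normalization (−0.75, adjusted p 0.00775), and the reads of these 4 genes cannot be told apart by strand.

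**Figure D1:**
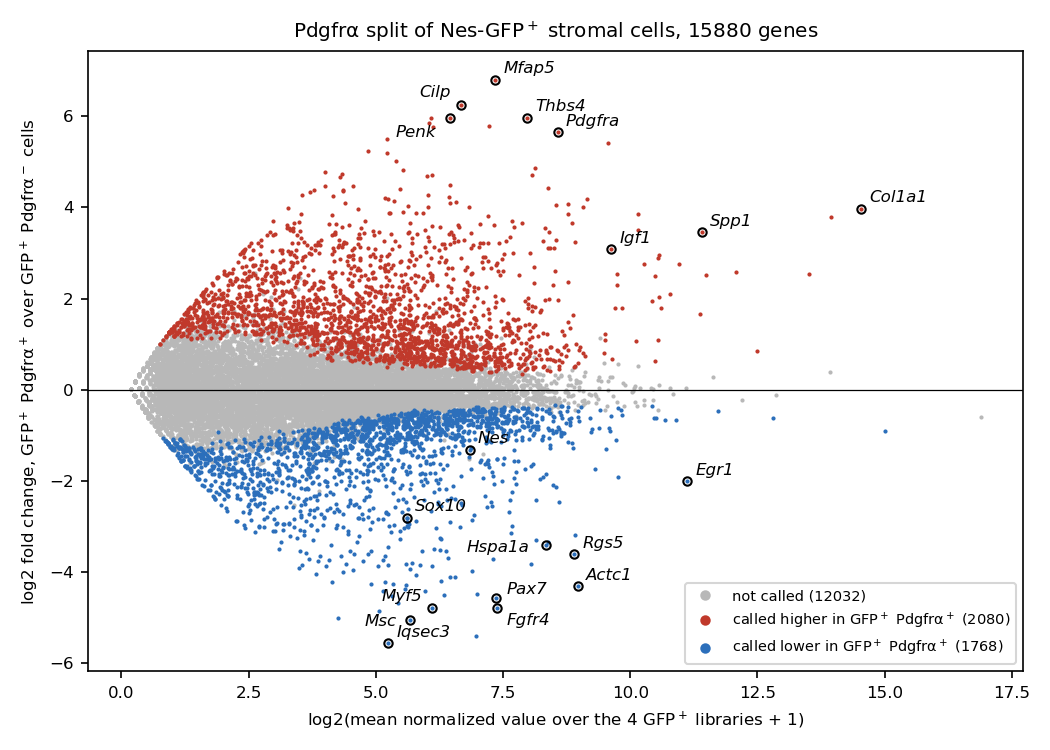
Each point is 1 of 15880 genes, with the log2 of 1 plus the mean normalised value over the 4 GFP+ libraries on the x axis and the log2 ratio of Pdgfrα+ to Pdgfrα- cells on the y axis. Red points are the 2080 genes called higher and blue points the 1768 called lower in Pdgfrα+ cells. *Mfap5* (6.81) and *Iqsec3* (−5.57) are the extremes of the fitted ratio among the genes called. The fit adds a pseudocount of 1, which shrinks the ratio of genes at the floor such as *Iqsec3*, so their place is no rank by reads.

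Lists of genes by role put these leaders in context. The 39 lists held 757 distinct genes of the table, of which 227 were called higher and 192 lower in Pdgfrα+ cells. The counts of members called stand beside shares of 13.1% higher and 11.1% lower over all genes. The lists were chosen with earlier results of these data known, so the counts describe them and are no test against these shares. In bulk libraries, fewer cells of a type and less RNA of a gene in each cell cannot be told apart. Of the lists, 25 shared a member with another list. With genes at the floor set to their bound, list medians moved by at most 0.63, and the moved medians are given where they differ by more than 0.1. Centring each library on its median or quantile normalization turned the sign of none of the list medians, which moved by at most 0.49, and those moved by more than 0.2 are given with both values.

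Genes of bone matrix and mineralization were higher in Pdgfrα+ cells nearly throughout. Of 28 listed genes 27 were in the table, and 24 were called higher, with a median fold change of 3.00 against −0.02 over all genes. The 3 members not called were *Mepe*, *Slc20a2* and *Sost*, chosen after their values were seen. The summed level of the list was 118792 and 89415 in Pdgfrα+ cells and 9721 and 8938 in Pdgfrα- cells. *Col1a1*, a chain of type I collagen and the most abundant member per kb of exon, had values of 51184 and 38311 against 3099 and 2562 (3.97 ± 0.18, adjusted p 6.87e-08), and *Col1a2*, the other chain, 33169 and 25460 against 2310 and 1922 (3.79). Both Pdgfrα+ libraries were well above both Pdgfrα- libraries, in which collagen I transcripts were still among the abundant ones. *Spp1*, which encodes the mineral-binding protein osteopontin, had values of 6048 and 3915 against 494 and 393 (3.46 ± 0.24). *Smpd3* and *Phospho1*, whose enzymes act in the release of phosphate for mineral, had 119 and 87.0 against 6.43 and 5.53 (3.88) and 153 and 71.7 against 4.01 and 9.39 (3.88). *Bglap2*, an osteocalcin gene of nearly the same sequence as its neighbour, so that its reads are uncertain, stood at 42.4 and 32.9 in Pdgfrα+ cells and at the floor in Pdgfrα- cells, 100.4-fold higher (counting interval 34.0 to 489.7). The collagen-binding glycoprotein gene *Sparc* (2.55) was called as well.

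The regulators of the osteoblast lineage followed the matrix. Of 19 transcription factor genes in the table, 12 were called higher, with a median of 1.52 (1.38 with floor genes at their bound). Of the other 7, 1 was called lower when Pdgfrα+ replicate 2 was left out. *Sp7*, which encodes osterix, had values of 222 and 140.1 in Pdgfrα+ cells and 11.8 and 16.3 in Pdgfrα- cells (3.58 ± 0.35, adjusted p 1.88e-05). *Dlx3*, a homeobox factor, had 59.5 and 43.6 against 5.46 and 6.05 (2.94). At both genes the Pdgfrα+ libraries differed from each other, with replicate 1 above replicate 2, and neither came near the Pdgfrα- values. *Prrx1*, the paired-related factor of limb mesenchyme, showed a smaller difference, 427 and 357 against 148 and 152 (1.38). *Zfp521*, a zinc-finger factor that restrains Runx2, was not called (−0.44, adjusted p 0.0605).

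Since members of the bone matrix list moved together and Runx2 is their known regulator, their promoters were read for the Runx motif AACCACA on both strands, in windows from 250 bases before to 50 after the start of each gene as given by RefSeq (build GRCm38.p6). The motif was present in 3 of 21 windows of the list (14.3%), in 62 of 1431 of the genes called higher (4.33%), in 46 of 1210 called lower (3.80%) and in 450 of 10304 of all genes with a window (4.37%). The Sox motif ACAAAG, which can share bases with it, was in 17.6% of the windows of genes called higher, 16.9% of those called lower and 16.6% of all, and the CArG box of serum response factor in 1.75%, 1.90% and 1.62%. The CArG box was in 2 of 17 windows of the smooth muscle list (11.8%) and the Sox motif in 2 of 14 of the glial and neural crest list (14.3%). The shares of the called genes lay close to those over all genes. Those of the bone matrix and smooth muscle lists were higher and that of the glial list lower, and they rest on 3, 2 and 2 genes. The 2 smooth muscle genes are *Cnn2*, called higher, and *Myl9*, chosen after its values were seen and not called (−0.98), and the 2 glial genes are *Zeb2*, called lower (−0.62, but not without the mean-variance trend, adjusted p 0.067), and *Serpine2*, called higher (1.42). The 3 genes of the bone matrix list are *Spp1*, *Dmp1*, an acidic phosphoprotein of mineralized matrix, and *Mmp13*, the collagenase of osteoblasts and cartilage, the last 2 chosen after their values were seen. *Dmp1* had values of 216 and 143 against 45.5 and 33.3 (2.14) and *Mmp13* 675 and 546 against 68.6 and 70.6 (3.11). The stretch around the match lies at chr5:104434952-104435018 for *Spp1*, chr5:104202422-104202488 for *Dmp1* and chr9:7272365-7272431 for *Mmp13*, all on the plus strand of GRCm38.p6. Capitals mark the motif, its first base lies at −129, −165 and −119 from the start of the gene, and a match describes the letters and not a bound site.
Spp1: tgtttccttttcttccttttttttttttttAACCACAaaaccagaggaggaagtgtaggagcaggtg
Dmp1: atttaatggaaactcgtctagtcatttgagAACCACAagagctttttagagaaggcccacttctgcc
Mmp13: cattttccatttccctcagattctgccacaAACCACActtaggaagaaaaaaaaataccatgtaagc

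Collagens beyond type I and the genes of tendon and perichondrium were also higher. All 14 listed fibrillar and fibril-associated collagen genes were called higher (median 2.67, or 2.43 with quantile normalization). *Col3a1*, the most abundant of them per kb of exon, had values of 7607 and 7310 in Pdgfrα+ cells and 1318 and 1168 in Pdgfrα- cells (2.59 ± 0.12), and *Col14a1*, a fibril-associated collagen of dense connective tissue, 644 and 622 against 32.9 and 24.8 (4.42). *Col12a1* (2.90), *Col6a3* (2.76), *Col5a1* (1.95), *Col22a1* (3.58) and *Col24a1* (3.19) were also higher, and *Col8a2* was at the floor in Pdgfrα- cells, 53.0-fold higher (counting interval 14.3 to 444) in Pdgfrα+ cells. Of 16 tendon and perichondrial genes, 14 were called higher and 2 lower (median 2.54). The small proteoglycan gene *Dcn* had values of 1423 and 1540 against 39.9 and 28.4 (5.42 ± 0.17, adjusted p 6.51e-09), and its relatives *Lum* and *Aspn* 566 and 467 against 24.2 and 14.5 (4.70) and 776 and 939 against 61.3 and 71.6 (3.67). *Postn*, the matricellular protein of periosteum, stood at 4514 and 5289 against 841 and 855 (2.53), and *Bgn* at 2666 and 2682 against 343 and 341 (2.96). These genes were high in both Pdgfrα+ libraries, and no Pdgfrα- library came near them. The 2 members called lower were *Egr1* and *Scx*. *Egr1* is described with the immediate-early genes, and *Scx*, the factor that specifies tendon, was at the floor in Pdgfrα+ cells and at 3.04 and 3.22 in Pdgfrα- cells, 5.32-fold lower (counting interval 1.83 to 21.1). The call of *Scx* ended without any 1 of the 4 libraries (adjusted p 0.0745 to 0.106).

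Cartilage genes split in another way. Of 23 in the table, 9 were called higher and 1 lower, with a median of 0.59 and a summed level of 3438 and 2710 in Pdgfrα+ cells and 481 and 526 in Pdgfrα- cells. *Col11a1*, the most abundant per kb of exon, is expressed by osteoblasts as well as chondrocytes and had values of 2447 and 1718 against 196 and 162 (3.51). *Col11a2* had 338 and 254 against 22.9 and 22.8 (3.62) and the link protein gene *Hapln1* 19.5 and 38.7 against 4.49 and 3.99 (2.44). These 3 were higher in both Pdgfrα+ libraries. *Col2a1*, the defining collagen of cartilage, was more scattered, with 175 and 280.4 against 12 and 48.2 (3.14 ± 0.70, 2.18 without Pdgfrα- replicate 1 and 4.1 without Pdgfrα- replicate 2), and its call ended without Pdgfrα+ replicate 2 (adjusted p 0.0676) or Pdgfrα- replicate 1 (adjusted p 0.117). *Sox6*, a chondrocyte factor with Sox5 and Sox9, was the 1 member called lower (−0.62), and that call ended without Pdgfrα+ replicate 1 (adjusted p 0.112), Pdgfrα- replicate 1 (adjusted p 0.0773) or Pdgfrα- replicate 2 (adjusted p 0.097). With all libraries, the call of *Col2a1* also ended with voom (adjusted p 0.0528) and without the mean-variance trend (adjusted p 0.0503). The same 2 alternatives ended that of *Sox6* (adjusted p 0.0534 and 0.0742). The cartilage markers *Matn1*, *Epyc*, *Ucma* and *Nkx3-2* were at the floor in both populations. The part of chondrocytes in the differences was not tested.

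Genes listed as factors of the blood stem cell niche were mostly higher in Pdgfrα+ cells. Of 17 listed genes 12 were called higher and 1, *Jag1*, lower (median 1.88). *Igf1*, an insulin-like growth factor, had values of 1277 and 1524 in Pdgfrα+ cells and 199 and 134 in Pdgfrα- cells (3.08 ± 0.21, adjusted p 1.56e-06), and *Fgf7*, which acts on epithelial cells, 39.9 and 46.4 against 5.22 and 7.07 (2.64). Both were higher in each Pdgfrα+ library. Per kb of exon the most abundant of the list was *Spp1*, at 1646 over the 4 libraries. The Notch ligand gene *Jag1* had 39.6 and 45.6 against 65.2 and 90.9 (−0.84), and its call ended without Pdgfrα+ replicate 1 (adjusted p 0.11), Pdgfrα+ replicate 2 (adjusted p 0.0564) or Pdgfrα- replicate 2 (adjusted p 0.195).

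Genes of the fat lineage were called in both directions. Of 18 genes, 4 were called higher, 5 lower and 9 not at all, with a median of 0.14. The 4 were *Ebf2*, *Zfp423* and *Ebf1*, transcription factors of preadipocytes, and *Lpl*, the lipoprotein lipase. *Ebf2* had values of 152 and 234 against 19.1 and 17.6 (3.29 ± 0.30), *Zfp423* 68.4 and 88.1 against 7.65 and 8.10 (3.15) and *Lpl* 453 and 499 against 77.1 and 68.6 (2.69). The 5 lower were *Cd36*, *Fabp4*, *Fabp5*, *Cfd* and *Plin1*, which serve lipid uptake, transport and storage or, for *Cfd*, complement. *Cd36* stood at 10.1 and 18.8 against 44.6 and 62.9 (−1.86) and *Fabp5* at 9.25 and 9.06 against 23.9 and 31.0 (−1.48), and *Plin1* was chosen after its values were seen (−1.27). *Cd36* and *Fabp4* are also expressed by capillary endothelium, whose part in these calls was not tested. The number called lower was 3 without Pdgfrα+ replicate 1, 3 without Pdgfrα+ replicate 2 and 2 without Pdgfrα- replicate 1, and 3 with edgeR. The call of *Cfd* ended without Pdgfrα+ replicate 1 (adjusted p 0.0983), Pdgfrα+ replicate 2 (adjusted p 0.0655) or Pdgfrα- replicate 1 (adjusted p 0.196), that of *Fabp4* without Pdgfrα- replicate 1 (adjusted p 0.0686) and that of *Plin1* without any 1 of the 4 libraries (adjusted p 0.0781 to 0.212).

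In Pdgfrα- cells the strongest pattern over a list was that of muscle precursors. Of 23 listed genes, all in the table, 20 were called lower in Pdgfrα+ cells, with a median of −3.84, or −4.12 with quantile normalization. The 3 not called were *Cdon*, *Six4* and *Myf6*, of which the last 2 were chosen after their values were seen. The list summed to 980.1 and 1018 in Pdgfrα+ cells and to 4384 and 4686 in Pdgfrα- cells. Its most abundant gene per kb of exon was *Dag1*, the laminin receptor dystroglycan, which many cell types express, with values of 364 and 351 against 1274 and 1452 (−1.92). *Megf10*, a receptor of satellite cells, had 54.8 and 48.7 against 536 and 496 (−3.29 ± 0.31), and *Itga7*, the integrin chain that binds laminin in muscle, 3.45 and 3.31 against 84.4 and 94.3 (−4.36). The defining factors *Pax7*, *Myf5* and *Pax3* were all far above the floor in Pdgfrα- cells, and *Pax3* stood at 0.414 and 1.58 against 15.9 and 14.3 (−3.07). Values of *Myod1* and *Myog*, the factors of commitment and fusion, were 2.62 and 3.31 against 66.6 and 84.8 (−4.27) and 4.56 and 4.46 against 141 and 95.3 (−4.41), both chosen after their values were seen.

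Genes of the contractile apparatus moved the same way. Of 27 in the table, 19 were called lower, with a median of −2.11 (−1.48 with floor genes at their bound) and sums of 303 and 264 in Pdgfrα+ cells and 3323 and 2949 in Pdgfrα- cells. *Actc1*, the actin of cardiac and embryonic skeletal muscle and the most abundant member per kb of exon, had values of 57.0 and 37.8 against 1046 and 856 (−4.32 ± 0.33, adjusted p 2.90e-06). The giant sarcomere proteins *Neb* and *Ttn* had 31.1 and 36.9 against 518 and 470.4 (−3.83) and 109.8 and 79.2 against 914 and 818 (−3.20). Troponin T genes *Tnnt1* (−4.27) and *Tnnt2* (−4.06, −4.89 without Pdgfrα+ replicate 1 and −3.24 without Pdgfrα+ replicate 2) and the myosin-binding gene *Mybpc1* (−3.72) were lower in both Pdgfrα+ libraries. The part of muscle cells in the differences between the populations was not tested, and the sort had no antibody against muscle cells.

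Glial and neural crest regulators were the next list by the number called lower. Of 25 listed genes 24 were in the table, and 14 were called lower and 3 higher (median −1.40). *Sox8*, a SoxE factor of glia that satellite cells also express, had values of 12.8 and 11.4 in Pdgfrα+ cells and 162 and 142 in Pdgfrα- cells (−3.55 ± 0.31, adjusted p 7.18e-06). *L1cam*, an adhesion molecule of axons and Schwann cells, had 12.3 and 4.46 against 58.6 and 61.6 (−2.84, −3.49 without Pdgfrα+ replicate 1 and −2.20 without Pdgfrα+ replicate 2), and *Ncam1* 164 and 132 against 302 and 329 (−1.10). Both Pdgfrα- libraries were higher for each. The 3 called higher were *Cdh2*, *Ngfr* and *Serpine2*, which mesenchyme also expresses. The neurotrophin receptor gene *Ngfr* stood at 94.6 and 109 against 33.6 and 23.3 (1.82) and the protease inhibitor gene *Serpine2*, the most abundant member per kb of exon, at 459 and 353 against 137 and 164 (1.42). With such members the list summed to nearly equal levels, 2076 and 1777 against 2284 and 2402, while its defining factor *Sox10* (−2.81) was lower in both Pdgfrα+ libraries. *Gap43* and *Gas7* were not called (0.91 and 0.38).

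Markers of mature Schwann cells were called in part. Of 17 myelin genes in the table (20 listed), 8 were called lower (median −1.32), with sums of 727 and 638 against 1097 and 1049. The number called lower was 4 without Pdgfrα+ replicate 2, 5 without Pdgfrα- replicate 1 and 4 without Pdgfrα- replicate 2, and 1 gene was called higher without Pdgfrα- replicate 2. *Drp2*, a dystrophin-related protein of the Schwann cell membrane, had values of 9.25 and 13.7 in Pdgfrα+ cells and 149.7 and 168 in Pdgfrα- cells (−3.70 ± 0.34), and the connexin gene *Gjc3* 11.5 and 16.5 against 85.8 and 75.8 (−2.47). Both were clearly higher in the 2 Pdgfrα- libraries. The most abundant gene of the list per kb of exon, *Pmp22*, is also expressed by fibroblasts and was not called (0.23), nor was *Egr2*, the factor of myelination (−0.74).

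Of 12 genes of non-myelinating and mature Schwann cells, 2 were called higher, *Apod* and *Abca8a*, and 5 lower, *Kcna1*, *Chl1*, *Gfra3*, *Sostdc1* and *Ncam1* (median −0.67, sums 1009 and 1190 against 1159 and 1138). *Kcna1*, a potassium channel of nerve, had values of 20.9 and 8.48 against 140.0 and 135 (−3.27 ± 0.43, −3.87 without Pdgfrα+ replicate 1 and −2.66 without Pdgfrα+ replicate 2), and *Chl1*, an adhesion molecule, 4.56 and 6.76 against 46.3 and 45.1 (−2.83). The transporter gene *Abca8a* went the other way, with 394 and 524 against 89.2 and 88.4 (2.34), as did the lipocalin gene *Apod* (2.66). *Matn2*, the most abundant of these genes per kb of exon, was not called (−0.36). Of 25 neuronal genes 12 were in the table, and the rest were not analysed here. Of these, *Ntrk2*, *Ntrk3* and *Tubb3* were called higher and *Ret* lower (median 0.68, or 0.35 with floor genes at their bound), and *Stmn2*, *Prph*, *Nefm* and *Nefh* were at the floor in both populations. The list summed to 271 and 335 against 53.2 and 70.5, with *Ntrk2*, which mesenchyme expresses too, as the most abundant gene per kb of exon. The call of *Ret* ended without Pdgfrα+ replicate 2 (adjusted p 0.255), Pdgfrα- replicate 1 (adjusted p 0.0919) or Pdgfrα- replicate 2 (adjusted p 0.208) and that of *Tubb3* without Pdgfrα+ replicate 1 (adjusted p 0.128) or Pdgfrα- replicate 2 (adjusted p 0.185), the latter also with edgeR on all libraries (adjusted p 0.163). With all libraries the call of *Ret* ended with edgeR too (adjusted p 0.0563) and without the mean-variance trend (adjusted p 0.0735). A pseudocount of 0.1 ended the calls of both *Ret* and *Tubb3* (adjusted p 0.111 and 0.0637). The part of glia in the differences was not tested.

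Mural cells of vessels formed another group with higher levels in Pdgfrα- cells. Of 18 pericyte genes in the table, 8 were called lower in Pdgfrα+ cells and 2 higher, *Anpep* and *Ebf1*, with a median of −0.89 and sums of 1278 and 1278 against 2354 and 3059. *Rgs5*, a regulator of G-protein signals and the most abundant member per kb of exon, had values of 69.5 and 70.6 in Pdgfrα+ cells and 731 and 1035 in Pdgfrα- cells (−3.62 ± 0.26, adjusted p 2.10e-06). *Mcam*, which encodes CD146, had 29.1 and 31.5 against 191 and 231 (−2.76), and *Abcc9*, the regulatory subunit of a potassium channel of pericytes, 67.0 and 70.6 against 202 and 253 (−1.70). All 3 were several times higher in each Pdgfrα- library. *Gja4*, a connexin, was at the floor in Pdgfrα+ cells, at least 8.57-fold lower. Not all surface markers of pericytes followed *Mcam*. *Cspg4*, which encodes NG2, was not called, with 205 and 146 against 104 and 147 (0.48, adjusted p 0.341). Nor was *Pdgfrb*, with 169 and 161 against 110.4 and 159.9 (0.31, adjusted p 0.286). The aminopeptidase gene *Anpep* was higher in Pdgfrα+ cells, 194 and 234 against 18.3 and 18.9 (3.45).

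Of 21 smooth muscle genes, 13 were called lower and 2, *Cnn2* and *Cald1*, higher, with a median of −1.75 and sums of 1920 and 1569 against 2297 and 2834. *Acta2*, the smooth muscle actin and most abundant member per kb of exon, had values of 73.3 and 46.4 against 584 and 623 (−3.35 ± 0.21, adjusted p 8.50e-07), and *Myh11*, the myosin heavy chain that marks contractile smooth muscle, 13.9 and 5.61 against 131 and 224 (−4.12, −4.71 without Pdgfrα+ replicate 1 and −3.53 without Pdgfrα+ replicate 2). The values of *Actg2*, the enteric actin, were 4.56 and 2.16 against 26.8 and 50.3 (−3.17). For all 3 the Pdgfrα- libraries were far above the Pdgfrα+ libraries, in which *Acta2* was still detected. *Cnn2*, a calponin of many cell types, had 128 and 80.9 against 35.8 and 30.2 (1.60), *Tpm1* was not called (0.40), and the call of *Cald1* ended without any 1 of the 4 libraries (adjusted p 0.116 to 0.237). The part of mural cells in the differences was not tested.

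**Figure D2:**
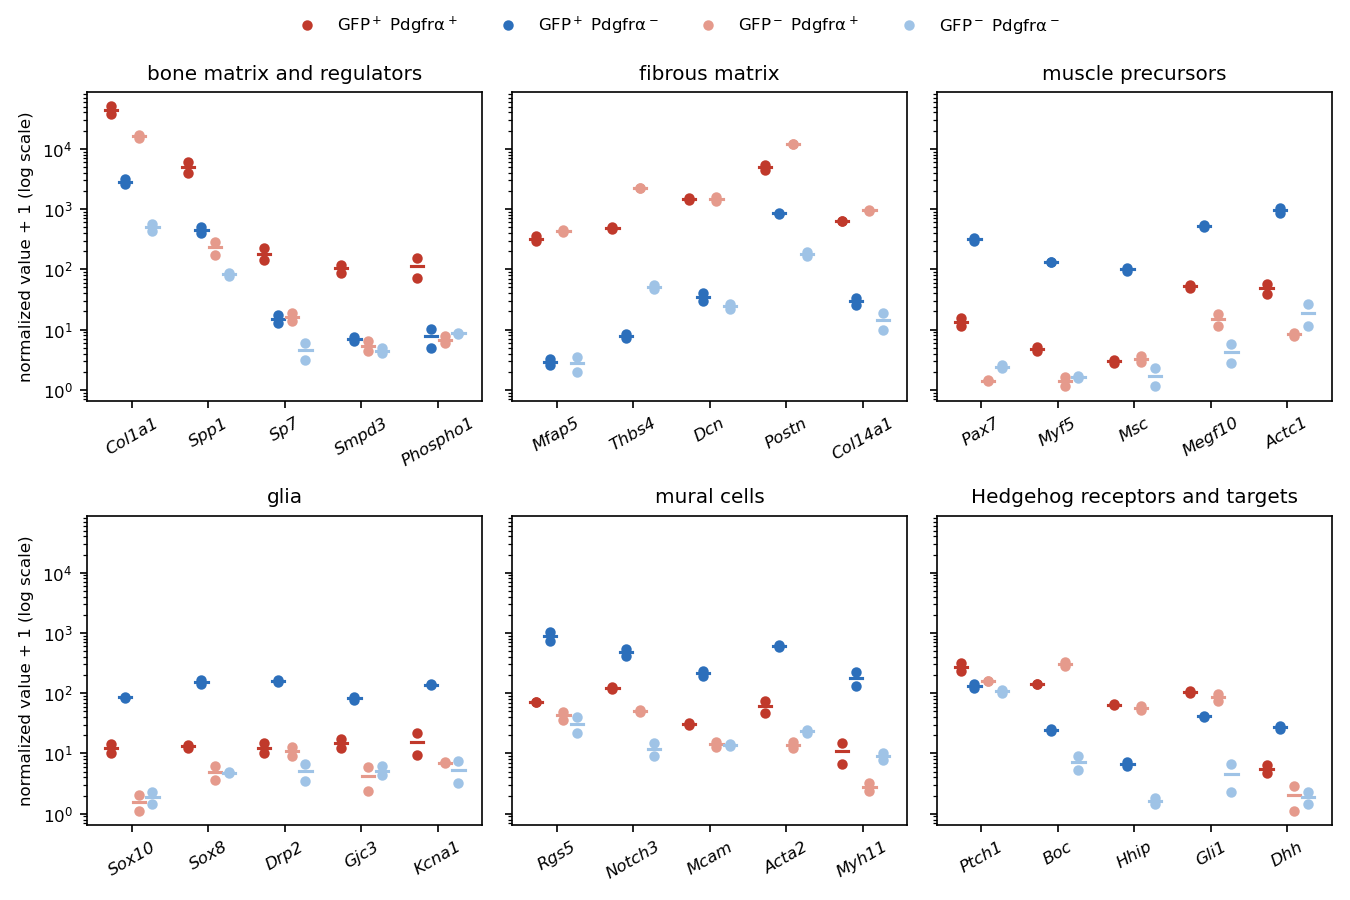
Normalised value plus 1 on a log axis for 30 genes in 6 groups, with 1 point per library, a line at the mean of each population and the 4 populations side by side. In the GFP+ cells, bone and fibrous matrix genes and Hedgehog receptors were higher with Pdgfrα, and genes of muscle precursors, glia and mural cells, with *Dhh*, were higher without it.

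Markers of the cells that the sort was meant to remove were low in both GFP+ populations. Of 18 endothelial genes, *Ramp2* and *Eng* were called higher, 11.1% of the list against 13.1% of all genes, and *Esam* lower (median −0.09). The list summed to 169 and 208 in Pdgfrα+ cells and to 120.4 and 194 in Pdgfrα- cells, with *Eng* most abundant per kb of exon, at 9.40 over the 4 libraries. The vascular cadherin gene *Cdh5* had 16.2 and 33.8 against 7.16 and 22.0 and was not called (0.83), and *Esam*, which encodes a junction protein, was at the floor in Pdgfrα+ cells and at 6.68 and 11.2 in Pdgfrα- cells, 20.7-fold lower (counting interval 6.80 to 103). Of 17 white blood cell genes, *Lyz2* and *S100a9* were called lower, 11.8% of the list against 11.1% of all genes (median −0.65, or −0.45 with floor genes at their bound), with sums of 13.4 and 34.1 against 46.7 and 48.2, *S100a8* most abundant per kb of exon and *Ctss* at the floor. White blood cell genes without any read numbered 5 and 1 in the Pdgfrα+ libraries and 2 and 0 in the Pdgfrα- libraries. The call of *Lyz2* ended without Pdgfrα+ replicate 1 (adjusted p 0.0549) or Pdgfrα- replicate 1 (adjusted p 0.0825) and that of *S100a9* without Pdgfrα+ replicate 1 (adjusted p 0.243), Pdgfrα- replicate 1 (adjusted p 0.199) or Pdgfrα- replicate 2 (adjusted p 0.119).

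Of 14 red cell genes, *Epor*, *Spna1*, *Hbb-b1*, *Slc4a1* and *Hba-a2* were called lower in Pdgfrα+ cells (median −0.95, sums 52.8 and 54.9 against 192 and 106). *Hbb-b1*, the most abundant per kb of exon, had values of 15.3 and 14.2 against 51.4 and 32.0 (−1.40), and reads of globin genes that are near copies cannot be assigned with certainty. The number called lower was 3 without Pdgfrα+ replicate 1 and 2 without Pdgfrα- replicate 1, and with all libraries 3 without the mean-variance trend and 2 with voom. The call of *Hbb-b1* ended without Pdgfrα- replicate 1 (adjusted p 0.0626), that of *Slc4a1* without Pdgfrα+ replicate 1 (adjusted p 0.0937) or Pdgfrα- replicate 1 (adjusted p 0.136) and that of *Hba-a2* without any 1 of the 4 libraries (adjusted p 0.0636 to 0.234). All 3 calls also ended with voom (adjusted p 0.238, 0.141 and 0.409). Of 5 melanocyte genes in the table, *Kit* was called lower (3.18 and 4.17 against 13.2 and 9.13, −1.37), a call that ended without Pdgfrα- replicate 1 (adjusted p 0.0843), and *Mitf*, *Tyr* and *Tyrp1* were not called (list median −0.43, sums 14.8 and 18.8 against 27.3 and 21.2). The number of melanocyte genes called lower was 2 without Pdgfrα+ replicate 1 and 0 without Pdgfrα- replicate 1. The part of these cell types in the differences was not tested.

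Ligands of PDGF receptors were split between the populations. Of the 7 genes of the family, *Pdgfra*, *Pdgfd* and *Pdgfrl* were called higher and *Pdgfb* and *Pdgfa* lower in Pdgfrα+ cells (median 0.31). The call of *Pdgfra* is a check of the sort and not a finding. *Pdgfa*, the ligand of Pdgfrα, had values of 67.3 and 35.5 in Pdgfrα+ cells and 111 and 143 in Pdgfrα- cells (−1.35 ± 0.37), higher in both libraries that lack the receptor, though its call ended without Pdgfrα+ replicate 2 (adjusted p 0.182), Pdgfrα- replicate 1 (adjusted p 0.0804) or Pdgfrα- replicate 2 (adjusted p 0.163). *Pdgfd*, a ligand of Pdgfrβ, had 20.3 and 20.6 against 1.09 and 2.70 (2.94), and *Pdgfb*, the ligand that recruits pericytes, was at the floor in Pdgfrα+ cells and at 3.52 and 5.53 in Pdgfrα- cells, 31.0-fold lower (counting interval 5.22 to 1260). *Pdgfc* had 64.5 and 52.5 against 53.3 and 66.5 and overlapped between the populations (−0.03, adjusted p 0.95). *Pdgfrl*, a receptor-like protein, was higher (1.08), a call that ended without any 1 of the 4 libraries (adjusted p 0.0976 to 0.179), and *Pdgfrb*, given with the pericyte genes, was not called.

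In the Notch pathway more genes were called lower than higher in Pdgfrα+ cells. Of 20 in the table, 9 were called lower and 1, *Maml2*, higher (median −0.89), the latter a call that ended without any 1 of the 4 libraries (adjusted p 0.0992 to 0.174). Among ligands, *Dll1* had values of 1.80 and 0.144 in Pdgfrα+ cells and 30.2 and 34.6 in Pdgfrα- cells (−4.22 ± 0.49, adjusted p 6.49e-05, and −4.87 without Pdgfrα+ replicate 1 and −3.58 without Pdgfrα+ replicate 2). Among receptors, *Notch3*, the receptor of mural cells, had 118 and 125 against 419.7 and 536 (−1.96 ± 0.22, adjusted p 6.12e-05), while *Notch2* was not called (−0.23). The targets *Hey1* and *Heyl* had 23.3 and 18.3 against 72.2 and 75.5 (−1.79) and 102 and 118 against 295 and 364 (−1.58), and *Nrarp*, a target that feeds back on the pathway, was at the floor in Pdgfrα+ cells, 9.31-fold lower (counting interval 4.05 to 26.3). These genes, a ligand, a receptor and targets, were higher in the 2 Pdgfrα- libraries.

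Hedgehog pathway genes that were called were higher in Pdgfrα+ cells, apart from 1 ligand gene. Of 13 genes in the table, 7 were called higher and 1, *Dhh*, lower, 7.69% of the list against 11.1% of all genes (median 0.66). The ligand gene *Dhh*, a product of Schwann cells, had values of 3.73 and 5.32 in Pdgfrα+ cells and 28.0 and 24.1 in Pdgfrα- cells (−2.30 ± 0.49), and its call ended without Pdgfrα- replicate 1 (adjusted p 0.0548) and also with a pseudocount of 0.1 (adjusted p 0.0828). The receptor gene *Ptch1*, which is also a target of the pathway, had 319.7 and 231 against 142 and 122 (1.04 ± 0.16, adjusted p 6.77e-04). *Hhip*, a decoy receptor and target, had 62.6 and 64.8 against 5.22 and 6.30 (3.26), and the co-receptor gene *Boc* 141 and 139.9 against 22.5 and 24.6 (2.53). These 3 genes were higher in both Pdgfrα+ libraries. The signal transducer *Smo* was higher too (0.95), and so was the transcription factor and target *Gli1* (108 and 100.2 against 40.2 and 40.0, 1.35), whose call ended without any 1 of the 4 libraries (adjusted p 0.0892 to 0.128). With all libraries the call of *Gli1* also ended with a pseudocount of 0.1 (adjusted p 0.0782) and without the mean-variance trend (adjusted p 0.0846). The co-receptor genes *Gas1*, the most abundant member per kb of exon (−0.27), and *Cdon* (0.28, adjusted p 0.178) were not called.

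Of 38 Wnt pathway genes in the table, 22 were called higher and 1, *Sostdc1*, lower (median 1.05), and the number called lower was 2 without Pdgfrα+ replicate 2. Secreted modulators led. The inhibitor gene *Sfrp1*, the most abundant per kb of exon, had values of 345 and 381 in Pdgfrα+ cells and 38 and 31.0 in Pdgfrα- cells (3.36 ± 0.17, adjusted p 2.04e-07). *Dkk3* had 162 and 130.1 against 14.7 and 17.1 (3.12), *Dkk2* was at the floor in Pdgfrα- cells and 54.9-fold higher (counting interval 18.4 to 269) in Pdgfrα+ cells, and *Rspo3*, which strengthens Wnt signals, had 34.1 and 26.6 against 5.22 and 0.386 (3.41, 4.49 without Pdgfrα- replicate 1 and 2.32 without Pdgfrα- replicate 2). Inhibitors and an agonist were thus higher together. The Wnt and BMP antagonist gene *Sostdc1* had 5.11 and 8.77 against 34.6 and 33.1 (−2.17). Of the co-receptors *Lrp6* was called higher (0.67), a call that ended without the mean-variance trend (adjusted p 0.0546), while *Lrp5* (0.45) and the receptor gene *Fzd4* (−0.23) were not called.

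Of 42 BMP and TGF-β genes, 22 were called higher and 6 lower (median 1.00). Among ligands, *Bmp3*, which opposes bone formation, had values of 148 and 94.7 against 9.35 and 4.24 (4.02 ± 0.35), and *Gdf10* was at the floor in Pdgfrα- cells and at 51.8 and 58.8 in Pdgfrα+ cells, 147-fold higher (counting interval 49.9 to 716). *Bmp6* lay on the other side, with 17.5 and 12.5 against 61.1 and 62.4 (−1.99). Among antagonists and binding proteins, *Chrdl1* had 36.9 and 50.5 against 0.364 and 1.93 (4.46) and *Fstl1*, the most abundant member per kb of exon, had 2434 and 2451 against 418 and 444 (2.50). Both were higher in both Pdgfrα+ libraries. The target *Id1* had 6.77 and 2.44 against 31.2 and 30.5 (−2.62, −3.21 without Pdgfrα+ replicate 1 and −2.04 without Pdgfrα+ replicate 2) and the latent TGF-β binding protein gene *Ltbp1* 191 and 193 against 312 and 375 (−0.83), both higher in Pdgfrα- cells, and the receptor gene *Bmpr1a* was not called (0.31).

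In the IGF pathway the called genes were higher apart from those of receptors. Of 15 genes in the table, 10 were called higher and 2, *Igf1r* and *Igf2r*, lower (median 1.46, or 1.05 with quantile normalization). *Igfbp5*, a binding protein, had values of 2505 and 2328 in Pdgfrα+ cells and 632 and 770.1 in Pdgfrα- cells (1.79), and *Igfbp6* was at the floor in Pdgfrα- cells, 201-fold higher (counting interval 35.6 to 7972) in Pdgfrα+ cells. *Pappa*, a protease that frees IGF from binding proteins, had 219 and 255 against 39.7 and 33.3 (2.67), and its relative *Pappa2* was 17.2-fold higher (counting interval 6.38 to 65.1). The imprinted RNA *H19*, the most abundant of the list per kb of exon, had 4010 and 4039 against 1126 and 1441 (1.66 ± 0.26). The receptor genes differed little, *Igf1r* by −0.59 and *Igf2r* by −0.41. The call of *Igf1r* ended without Pdgfrα+ replicate 2 (adjusted p 0.0509) or Pdgfrα- replicate 2 (adjusted p 0.0784) and that of *Igf2r* without Pdgfrα+ replicate 2 (adjusted p 0.0888), Pdgfrα- replicate 1 (adjusted p 0.0579) or Pdgfrα- replicate 2 (adjusted p 0.103).

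Of 23 FGF genes, 7 were called higher and 2, *Fgfr4* and *Etv5*, lower (median 0.32). The number called higher was 3 without Pdgfrα+ replicate 2 and 4 without Pdgfrα- replicate 1, and 4 with a pseudocount of 0.1. The ligand gene *Fgf18*, which acts on osteoblasts and chondrocytes, had values of 31.9 and 32.1 in Pdgfrα+ cells and 1.82 and 0.900 in Pdgfrα- cells (3.83 ± 0.32). Its receptor gene *Fgfr2* had 232 and 125 against 16.9 and 16.6 (3.27 ± 0.26), the mirror of *Fgfr4*, which is the most abundant member per kb of exon. The ETS factor gene *Etv5*, a target of FGF signals, had 41.8 and 45.9 against 119 and 101 (−1.30), and its call ended without Pdgfrα- replicate 1 (adjusted p 0.0525). The feedback inhibitor genes *Spry1* (−0.49) and *Spred1* (0.32) were not called.

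Axon guidance genes were called in both directions. Of 27 ligand genes, 11 were called higher and 6 lower (median 0.71), and of 28 receptor genes, 15 were higher and 3, *Plxnb3*, *Unc5a* and *Plxna2*, lower (median 0.80). Without Pdgfrα- replicate 1 the ligands called were 6 higher and 3 lower and the receptors 8 higher, and without Pdgfrα- replicate 2 the ligands were 7 higher and 2 lower. With a pseudocount of 0.1 the ligands called higher were 7. The repellent genes *Slit2* and *Slit3* had values of 117 and 168 against 17.8 and 20.5 (2.81) and 255 and 221 against 24.6 and 24.8 (3.21 ± 0.18). The neuropilin genes *Nrp1* and *Nrp2*, receptors of semaphorins and VEGF, had 279 and 344 against 52.3 and 32.5 (2.88) and 706 and 494 against 71.5 and 63.9 (3.11). All 4 were higher in both Pdgfrα+ libraries, as were *Unc5c* (3.34), *Ephb2* (3.02), *Epha4* (2.99, 3.67 without Pdgfrα- replicate 1 and 2.31 without Pdgfrα- replicate 2), *Sema3d* (2.69) and *Sema5a* (1.18). On the other side were *Ntn4*, a laminin-related netrin, with 11.5 and 10.5 against 66.2 and 74.5 (−2.57), *Plxna2* with 140.4 and 125 against 422 and 401 (−1.63) and *Sema3g*, at the floor in Pdgfrα+ cells and 16.5-fold lower (counting interval 6.82 to 52.0).

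Of 26 genes of neurotrophic factors and their receptors, 11 were called higher and 6 lower (median 0.31, or 0.15 with floor genes at their bound). *Ntrk2*, the receptor of brain-derived neurotrophic factor, had values of 214 and 282 in Pdgfrα+ cells and 19.8 and 32.5 in Pdgfrα- cells (3.22 ± 0.23). *Cntfr* and *Lifr*, chains of receptors for cytokines of the interleukin 6 family, had 33.8 and 41.0 against 4.98 and 3.22 (2.93) and 607 and 467 against 125 and 143 (1.99). These 3 receptor genes were higher in Pdgfrα+ cells. The ligand gene *Ntf3* was at the floor there and at 6.19 and 4.76 in Pdgfrα- cells, 19.1-fold lower (counting interval 4.97 to 162). The receptor genes *Axl* (1.74) and *Egfr* (0.87) were also higher, and *Erbb3*, a receptor for neuregulin (−2.56), and *Gfra3*, a receptor chain for artemin (−2.51), were lower.

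Of 31 Hox genes, 3 were called higher, *Hoxa2*, *Hoxa3* and *Hoxa5*, 9.68% of the list against 13.1% of all genes (median 0.39), and another 1 was called lower without Pdgfrα+ replicate 1. *Hoxa2* had values of 17.8 and 20.8 in Pdgfrα+ cells and 3.04 and 5.53 in Pdgfrα- cells (1.98) and *Hoxa3*, with which it shares exons, 29.1 and 21.1 against 6.68 and 7.33 (1.69). The call of *Hoxa5* ended without Pdgfrα+ replicate 1 (adjusted p 0.059) or Pdgfrα- replicate 1 (adjusted p 0.117). Of 26 limb and girdle patterning genes, 11 were called higher and 3 lower, *Six2* among them (median 0.94, or 0.62 with floor genes at their bound). The number called higher was 7 without Pdgfrα+ replicate 2, 6 without Pdgfrα- replicate 1 and 6 without Pdgfrα- replicate 2, and the number called lower 1 without Pdgfrα- replicate 1. *Tbx5*, the T-box factor of the forelimb, had 15.3 and 16.8 against 2.06 and 1.41 (2.65), *Shox2* 49.0 and 27.7 against 5.46 and 4.50 (2.67) and *Osr1* 33.8 and 39.5 against 3.28 and 5.53 (2.83). Each was higher in both Pdgfrα+ libraries. The call of *Six2* ended without Pdgfrα+ replicate 1 (adjusted p 0.102), Pdgfrα- replicate 1 (adjusted p 0.0737) or Pdgfrα- replicate 2 (adjusted p 0.106).

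Of 26 genes of basement membrane and laminin receptors, 2, *Nid1* and *Nid2*, were called higher and 7 lower (median −0.01, or −0.27 with quantile normalization), and the number called lower was 4 without Pdgfrα- replicate 2. *Nid1*, the linker protein nidogen 1 and most abundant member per kb of exon, had values of 2553 and 3138 in Pdgfrα+ cells and 597 and 718 in Pdgfrα- cells (2.11 ± 0.16). *Lama5*, a laminin chain, had 7.04 and 4.74 against 143 and 166 (−4.51 ± 0.31, adjusted p 1.32e-06), and the integrin chain gene *Itgb4* 2.35 and 2.16 against 27.6 and 15.3 (−2.73). The laminin chain and its receptors *Itgb4*, *Itga7* and *Dag1* were thus higher without Pdgfrα, and nidogen with it. *Lamc1* was not called (−0.44), and the call of *Nid2* ended without any 1 of the 4 libraries (adjusted p 0.132 to 0.202).

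Of 32 channel genes, 7 were called higher and 10 lower (median −0.37), with 6 without Pdgfrα- replicate 1 called lower. The calcium channel gene *Cacna1g* had values of 96.8 and 90.7 in Pdgfrα+ cells and 8.62 and 9.65 in Pdgfrα- cells (3.23), and *Itpr1*, the channel that releases stored calcium, 149 and 144 against 40.4 and 43.3 (1.78). *Kcnj10*, a potassium channel of glia, had 5.94 and 6.18 against 41.6 and 37.7 (−2.52) and *Kcna2* 7.32 and 5.03 against 27.3 and 30.5 (−2.08). These 2 calcium channels were higher with Pdgfrα and these 2 potassium channels higher without it, while the potassium channel gene *Kcnk1*, also on the bone matrix list, was higher with it (3.57).

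**Figure D3:**
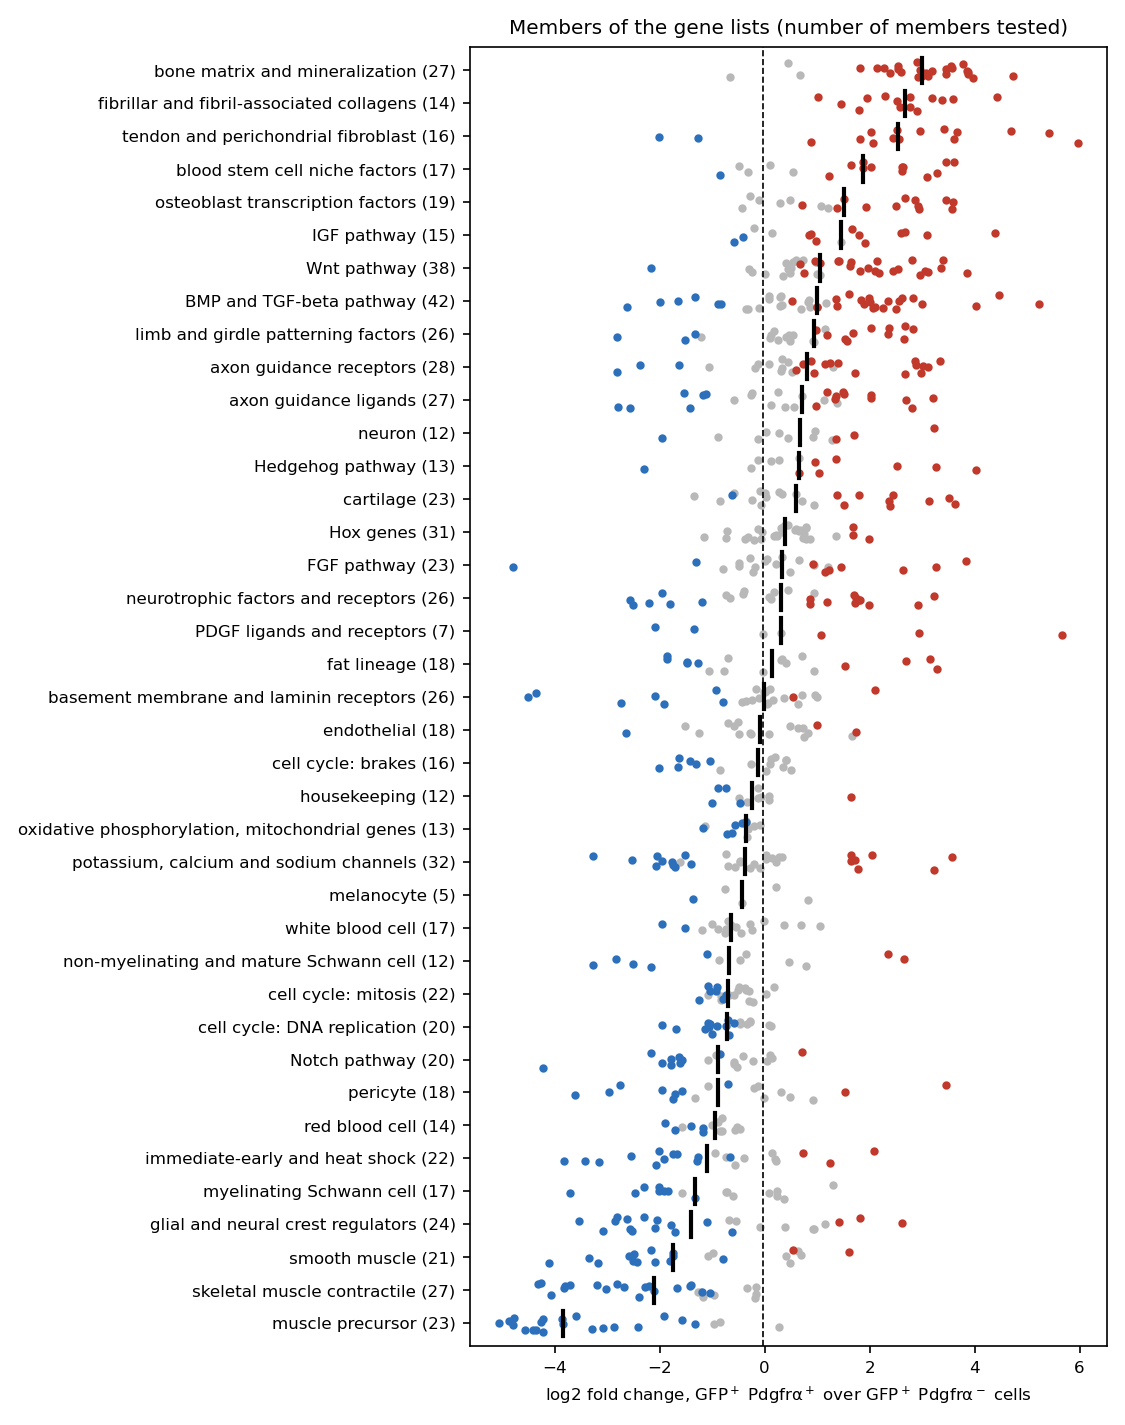
Log2 ratio of Pdgfrα+ to Pdgfrα- cells among GFP+ cells on the x axis for every member of the 39 gene lists, with 1 list per line and the lists ordered by their median (black bar). Red points were called higher, blue points lower and grey points not called, the dashed line is the median of all genes (−0.02), and medians ran from −3.84 (muscle precursor) to 3.00 (bone matrix and mineralization).

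Genes of the cell cycle were lower in Pdgfrα+ cells where they were called. Of 20 genes of DNA replication, 13 were called lower (median −0.71, sums 419 and 396 in Pdgfrα+ cells and 681 and 672 in Pdgfrα- cells), and of 22 mitotic genes, 7 were called lower (median −0.70, sums 938 and 716 against 1518 and 1294). The replication genes called lower were 6 without Pdgfrα- replicate 1 and 8 without Pdgfrα- replicate 2, and the mitotic genes 4 without Pdgfrα+ replicate 2 and 2 without Pdgfrα- replicate 1. Without the mean-variance trend they were 8 and 4. *Mki67*, which encodes the Ki-67 antigen of cycling cells, had values of 294 and 255 against 571 and 477 (−0.93 ± 0.15, adjusted p 8.13e-04), and the helicase subunit gene *Mcm3* 17.3 and 12.2 against 46.5 and 52.1 (−1.69). Both were lower in each Pdgfrα+ library. Of 16 inhibitors of the cycle in the table, 6 were called lower (median −0.12), with 1 called higher without Pdgfrα- replicate 2. *Cdkn1c*, which encodes the inhibitor p57, was the most abundant of them per kb of exon and had 452 and 394 against 973 and 1113 (−1.30), and *Btg2* had 67.0 and 73.7 against 265 and 308 (−2.01). Both of these inhibitors were higher in the 2 Pdgfrα- libraries.

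Genes that respond within minutes to handling, heat or digestion of tissue also differed. Of 22 immediate-early and heat shock genes, 12 were called lower and 3, *Ier3*, *Klf4* and *Zfp36*, higher (median −1.11, or −1.34 with quantile normalization, sums 5071 and 4368 in Pdgfrα+ cells and 9766 and 11912 in Pdgfrα- cells). *Egr1*, the most abundant of them per kb of exon, had values of 930.3 and 831 against 3295 and 3811 (−2.01 ± 0.22, adjusted p 4.51e-05), and *Fos* 228 and 172 against 465 and 505 (−1.29). The heat shock genes *Hspa1a* and *Hspa1b*, which are near copies so that reads may be shared, had 40.2 and 69.4 against 453 and 729 (−3.42) and 33.3 and 43.8 against 258 and 466 (−3.15). Both Pdgfrα- libraries were above both Pdgfrα+ libraries for each of these genes, as for *Dnajb1* (−2.56) and *Hsp90aa1* (−1.27). *Klf4* went the other way, with 154 and 129 against 54.5 and 64.4 (1.24). The call of *Ier3* ended without Pdgfrα- replicate 1 (adjusted p 0.0656) and that of *Zfp36* without Pdgfrα+ replicate 1 (adjusted p 0.21), Pdgfrα- replicate 1 (adjusted p 0.145) or Pdgfrα- replicate 2 (adjusted p 0.115). The part of such a response in the other differences was not tested.

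Of 13 mitochondrially encoded genes of oxidative phosphorylation, 6 were called lower (median −0.36, or −0.85 with quantile normalization, sums 10832 and 10857 against 17188 and 14316), and the number called lower was 2 without Pdgfrα+ replicate 1, 3 without Pdgfrα+ replicate 2 and 1 without Pdgfrα- replicate 1, and with all libraries 1 without the mean-variance trend. *mt-Nd6*, a subunit of complex I, had values of 35.8 and 30.9 against 87.5 and 66.2 (−1.17), and shares bases with *mt-Nd5* on the other strand. Of 12 genes often used for normalization, *B2m* was called higher and *Gapdh*, *Rpl13a*, *Pgk1* and *Eef1a1* lower (median −0.24). *Gapdh* had 46.0 and 54.8 in Pdgfrα+ cells and 103 and 99.4 in Pdgfrα- cells (−1.0 ± 0.17), *B2m* 193 and 221 against 65.9 and 65.5 (1.64), and *Ywhaz*, with 563 and 578 against 604 and 637, was not called (−0.12). The call of *Eef1a1* ended without Pdgfrα+ replicate 2 (adjusted p 0.0694), Pdgfrα- replicate 1 (adjusted p 0.0758) or Pdgfrα- replicate 2 (adjusted p 0.0623).

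The same split was measured in GFP- cells. The GFP- Pdgfrα- libraries held red cell transcripts at a summed level of 15785 and 23661, so that a difference between the splits need not go with GFP, which was not tested. The GFP- split had 9476 genes called (59.7%), 5226 higher (32.9%) and 4250 lower (26.8%) in Pdgfrα+ cells, with a median of 0.17 over all genes. The 2 splits share no library, but libraries with the same replicate number were taken to come from the same pool of pups. Of the 3848 genes called in GFP+ cells, 2913 were called in GFP- cells as well, 75.7% of the GFP+ calls and 30.7% of the GFP- calls, and 935 were called in GFP+ cells alone. Of the shared calls, 2279 had the same direction (1509 higher and 770 lower) and 634 opposite directions (3.99% of all genes), 195 higher in the GFP+ split and lower in the GFP- split and 439 the reverse. The difference between the splits, tested as such, was called for 7031 genes (44.3%), 3032 positive (19.1%) and 3999 negative (25.2%), with a median of −0.16. Among the genes called in the GFP+ split the difference was called for 2410 (62.6%). When each library was centred on its median, the share of higher calls went from 55.1% to 40.6% in the GFP- split and from 43.1% to 59.7% for the difference, and the medians over all genes moved from 0.17 to −0.28 and from −0.16 to 0.27, so that directions of small differences depend on the scaling.

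For some of the leading genes the difference between the splits was not called. For *Mfap5* the fold change was 7.36 in GFP- cells and the difference −0.55 (adjusted p 0.253), and for *Thbs4* 5.46 and 0.51 (adjusted p 0.0502). Of the bone matrix list the difference was called positive for 13 and negative for 4 of 27 genes, negative for the collagen genes *Col1a1* (−1.05, adjusted p 0.00462) and *Col1a2* (−1.28, adjusted p 9.15e-04). On the positive side, *Phospho1* had values of 6.68 and 4.90 in GFP- Pdgfrα+ cells and 7.90 and 7.43 in GFP- Pdgfrα- cells (difference 4.24, adjusted p 1.01e-04) and *Smpd3* 5.42 and 3.42 with Pdgfrα and 3.02 and 3.89 without it (difference 3.62, adjusted p 5.74e-05). *Spp1* stood there at 287 and 174 with Pdgfrα and 85.4 and 77.5 without it (difference 2.01, adjusted p 4.05e-04). These 3 were high in the GFP+ Pdgfrα+ libraries and lower in each of the other 6. For *Pax7*, values in GFP- cells were 0.378 and 0.446 with Pdgfrα and 1.29 and 1.53 without it (adjusted p of the difference 2.39e-05), and for *Sox8* 2.65 and 5.2 and, without it, 3.88 and 3.66 (difference −3.54, adjusted p 4.04e-05). Both genes were high in the GFP+ Pdgfrα- libraries and low in the other 6.

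The 6 largest negative differences, that of *Col6a6* apart, belonged to genes that were lower with Pdgfrα in GFP+ cells and higher with it in GFP- cells. *Dcx*, a microtubule protein of migrating neuroblasts that muscle precursors also make, had values of 4.56 and 10.5 in GFP+ Pdgfrα+, 149 and 142 in GFP+ Pdgfrα-, 20.0 and 35.5 in GFP- Pdgfrα+ and 0.718 and 1.30 in GFP- Pdgfrα- cells, a difference of −8.0 ± 0.53 (adjusted p 3.24e-07). *Mstn*, which encodes the muscle growth inhibitor myostatin, had 1.52 and 2.16, 41.9 and 44.4, 16.3 and 10.8 and 0.144 and 0.118 in the same order. Both were highest in the 2 GFP+ Pdgfrα- libraries and near or at the floor in the GFP- Pdgfrα- libraries. *Chodl*, a membrane lectin, had splits of −2.42 and 4.91, *Zdbf2* of −2.99 and 3.77 and *Zcchc5* of −1.58 and 5.36. *Mamstr*, a coactivator of MEF2 (−2.72 and 3.71), and *Pdlim4* (−2.81 and 3.49) are not among these 6 and were picked for their opposite directions. *Col6a6* was not called in GFP+ cells (−0.32) and was higher with Pdgfrα in GFP- cells (6.65).

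The largest positive differences came from genes that were abundant in GFP- Pdgfrα- cells. *Slc4a1*, the anion exchanger of red cells, had values of 2407 and 2990 there and 5.42 and 5.49 in GFP- Pdgfrα+ cells, against 5.66 and 9.06 with and 24.2 and 12.5 without Pdgfrα in GFP+ cells (difference 7.53). The globin genes *Hba-a2* and *Hbb-b2* had differences of 7.71 and 7.48. Red cell transcripts were thus high in the 2 GFP- Pdgfrα- libraries and low in the other 6, and their part in the GFP- split was not tested. *Cd24a*, a surface glycoprotein, had 3135 and 3073 in GFP- Pdgfrα- cells and 91.0 and 92.7 against 48.9 and 27.9 in GFP+ cells (split 1.29, difference 7.42). *Psd4* and *Ell2* rose with Pdgfrα in GFP+ cells and were lower with it in GFP- cells, *Psd4* at 11.2 and 5.32 against the floor, 21.8-fold higher (counting interval 7.10 to 109), and *Ell2*, an elongation factor of RNA polymerase, at 135 and 88.7 against 17.4 and 13.8 (splits 2.75 and −2.87). *Mylk3* was not called in GFP+ cells and in GFP- cells was at the floor with Pdgfrα, against 106 and 114 without it.

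**Figure D4:**
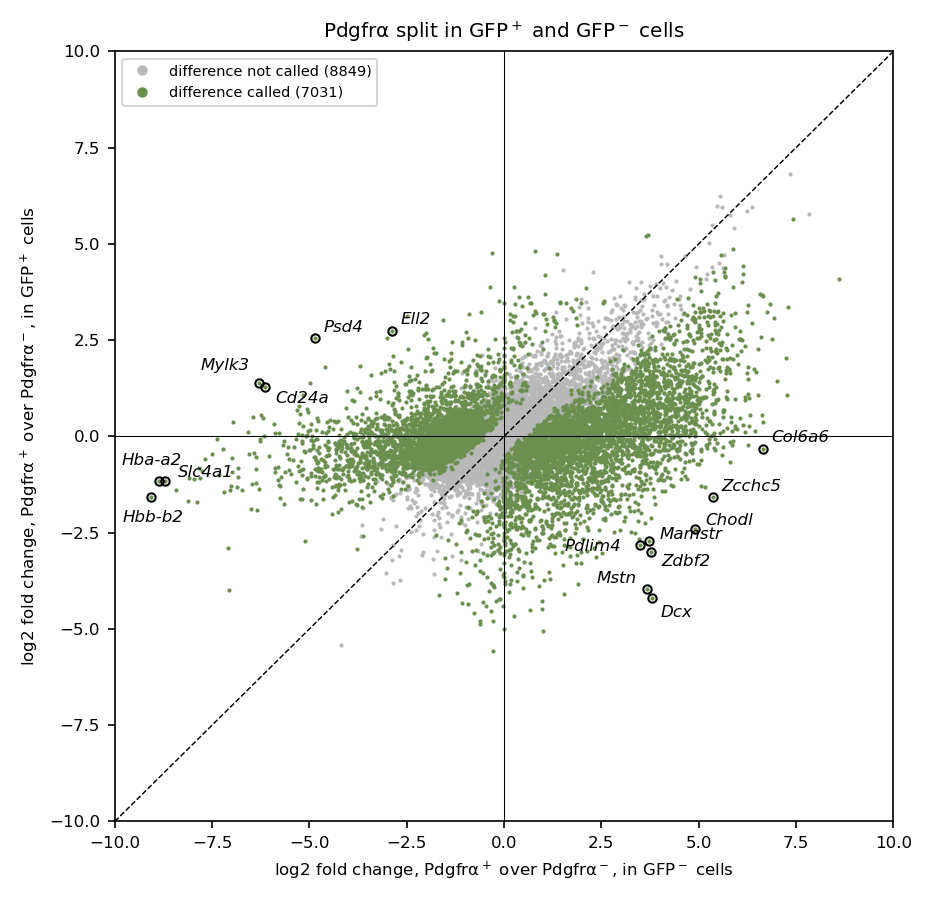
Each point is 1 of 15880 genes, with the log2 fold change of Pdgfrα+ over Pdgfrα- cells among GFP- cells on the x axis and among GFP+ cells on the y axis, and a dashed line where they are equal. Green points are the 7031 genes with a called difference, and the named genes are those with the largest differences, from *Dcx* (−8.0) to *Hba-a2* (7.71).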

How the data were processed

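RNA of 8 libraries, 2 from each of 4 sorted populations of newborn bone stroma, was amplified with the Ovation kit, which is not stranded, and sequenced. The authors removed adaptors with cutadapt, quantified reads with RSEM (1.17) on the NCBIM37 transcriptome, filtered genes by counts and deposited a normalised signal from voom of limma. Whole read counts were recovered from every column, each value being a count plus 0.5 divided by the effective library size, as CPM. Depth was 3564158 and 3329432 reads in GFP+ Pdgfrα+ and 3644103 and 3427644 in GFP+ Pdgfrα- cells, and 3 reads stood for a value of 0.825 to 1.04. Log2 values with a pseudocount of 1 were fitted with limma (3.58.1 in R 4.3.3), with 1 coefficient per population over the 8 libraries and a mean-variance trend, and p was adjusted by Benjamini-Hochberg over 15880 genes with a threshold of 0.05. Every adjusted p in the text comes from this fit where no other is named. The fit was also tried on simulated data, of which no result is given or used here. Replicate numbers were taken to mark pools, and a fit with the number as a block was among the alternatives, with edgeR (4.0.16), voom, other pseudocounts, filters, scalings and weights, and each library left out. Figures were drawn with matplotlib (3.10.9), counting intervals came from scipy (1.17.1), and lists were handled with pandas (2.3.3) and numpy (2.4.6) in Python (3.11.15). Genes named were *Pdgfra* and *Nes*, the 10 largest increases and decreases among called genes without overlap, up to 4 most abundant and up to 4 most changed called members of each list in each direction, all PDGF genes, the 6 largest differences between splits in each direction and 6 genes of opposite direction. Genes and lists were chosen with earlier results of these data known. Other named genes, *Dll1*, *Bmp6*, *Gli1*, *Egr1*, *Col1a1* and *Hspa1a* among them, also share exons with a gene on the opposite strand. Their reads cannot all be assigned either. Gene coordinates are those of NCBIM37 and promoter coordinates those of GRCm38.p6. The most abundant gene of a list is given per kb of exon.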

Additional observations from a re-analysis of the deposited data

Results flagged for a closer look

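For 15 genes a difference between groups stood out. The Pdgfrα split of GFP+ cells, less that of GFP- cells on the log2 scale, was tested with limma with 2 libraries in each population. The 6 largest positive differences were those of *Hba-a2* (7.71), *Mylk3* (7.69), *Slc4a1* (7.53), *Hbb-b2* (7.48), *Cd24a* (7.42) and *Psd4* (7.41), and the 6 largest negative differences those of *Dcx* (−8.0), *Mstn* (−7.63), *Chodl* (−7.33), *Col6a6* (−6.97), *Zcchc5* (−6.94) and *Zdbf2* (−6.76). *Ell2* (5.62), *Mamstr* (−6.44) and *Pdlim4* (−6.30) were among the genes with the largest changes of opposite direction in the 2 splits. For *Mstn*, *Mylk3* and *Psd4* at least 1 population was at the floor, so that the size of the fitted difference depends on the pseudocount and is no bound. The positive differences of *Hba-a2*, *Slc4a1* and *Hbb-b2*, all red cell genes, came with high values in the 2 GFP- Pdgfrα- libraries. The part of red cells in them was not tested.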

How the results depend on the processing

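The GFP+ split rested most on the number of libraries and on the threshold. Leaving out 1 library, which assumes that the lone sample varies like the others, gave 2158 to 3047 genes called (1271 to 1652 higher and 887 to 1395 lower), and adjusted p of at most 0.01 gave 2220 (1326 and 894). With the replicate block 2114 genes were higher and 1811 lower, and 3762 of the 3848 calls were shared. With edgeR 3406 and with voom 3556 were shared. Under these and the other alternatives that keep all libraries and the threshold of 0.05 the counts of the GFP+ split, the GFP- split and the difference stayed within 1.5 times those reported. Of the 221 called genes named in the text, 187 kept the call under every alternative and none turned sign. With all libraries and the threshold of 0.05, the most calls ended without the mean-variance trend (20), then with a pseudocount of 0.1 (11), voom (8), edgeR (6) and only the populations compared (6). The calls of *Eef1a1* and *Zfp36* were among those ended without the trend, and those of *Hoxa5*, *Six2* and *Pdgfrl* among those ended with the pseudocount. Named genes not called gained a call most often with voom (8) and edgeR (6). The block, median centring and quantile normalization added 4 calls each, only the populations compared 3 and no trend 1. With all libraries, 22 of 78 counts of list members called moved by over 1.5 times. For the fat lineage, red cells, FGF genes, axon guidance ligands, DNA replication, mitosis and mitochondrial genes the new counts stand in the report, and the others were small. Members called higher went from 2 to 1 for smooth muscle (pseudocount of 0.1, no trend or quantile normalization), from 2 to 1 for basement membrane (these 3, median centring or weights, but 4 with voom), from 3 to 5 for glial regulators (voom), from 0 to 1 for myelin (filter) and from 1 to 0 for Notch (no trend). Members called lower went from 2 to 1 for PDGF (no trend), tendon (voom or only the populations compared) and white blood cells (no trend, pseudocount of 0.1, edgeR or only the populations compared), from 2 to 1 for IGF with edgeR and to 0 with no trend, and from 1 to 0 for Hedgehog (pseudocount of 0.1), blood stem cell niche (no trend) and neuronal genes (no trend, pseudocount of 0.1 or edgeR). They went from 1 to 2 for endothelial genes (block) and cartilage (block or quantile normalization, but 0 with no trend or voom), and from 0 to 1 for osteoblast factors (block, median centring, quantile normalization or voom). *Gnas* and *Pdgfc*, not called, turned sign, the former to −0.75 with quantile normalization, where it was called lower (adjusted p 0.00775), and the cause was not tested. With libraries left out they ran from −0.28 to 0.34 and from −0.34 to 0.27, the extremes being values without a test, since a replicate number left out in all populations leaves 1 library in each.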
